A study of Canis lupus familiaris with 30 samples.

Results

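Normal stroma libraries of dogs with a purely tubular simple mammary carcinoma were compared with those of dogs with another simple subtype. Of the 15 normal stroma libraries among 30 in the series, 13 were used: 7 beside tubular carcinomas and 6 beside others. The libraries of dogs 128 and 136 were left out because their totals were under 100000 counts. In each of the 15 female dogs with a spontaneous, untreated tumour, LCM (laser-capture microdissection, by which selected areas of a section are isolated) had taken CAS (cancer-associated stroma) and normal stroma from the same FFPE (formalin-fixed paraffin embedded) slides. Normal stroma lay apart from the tumour around unaltered mammary glands, on slides that also held the carcinoma, so that no library came from a dog without a tumour. The tubular group held a Maltese, a Tibetan Terrier, a Havanese, an Appenzell Mountain Dog, a Bassett, a Chihuahua and a dog whose breed was not disclosed. Their ages were 6 to 14 years (median 12), and 3 of the 7 were labelled as neutered. The other group held 2 dogs with a tubulo-papillary carcinoma (121, a Samoyed, and 138, a Boxer) and 2 with a cystic-papillary carcinoma (134, a Viszla, and 139, breed not disclosed). It also held 1 dog with a cribriform carcinoma (131, a Bracke) and 1 with a tubular-solid carcinoma (109, a West Highland White Terrier). These dogs were 4 to 12 years old (median 9), and 2 of the 6 were labelled as neutered. The other group is thus 4 subtypes with 1 or 2 dogs each. Every library is a different dog, and the spread within a group is the spread between dogs.

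The stroma of the mammary gland is connective tissue of fibroblasts, collagen-rich matrix, blood vessels, fat and resident immune cells around the ducts and lobules. Simple carcinomas of the canine mammary gland consist of 1 neoplastic epithelial cell type and are named after the pattern that it forms. Tubules define the tubular subtype, fronds on a fibrovascular stalk the papillary ones, sieve-like sheets the cribriform one and dense sheets the solid one. The comparison asks whether stroma away from the tumour differs with that pattern. Genes are given by Ensembl ID because the deposited table does not pair IDs with names and 0 of its IDs matched the dog gene table used for reference. What these genes encode, and the markers of fibroblasts, fat, epithelium or immune cells that would test the labelled tissue, could therefore not be given. In such bulk samples, fewer cells of a type and less RNA per cell cannot be told apart.

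Depth was alike in range between the groups. Total estimated counts were 769370 to 3932370 (median 2951541) beside tubular carcinomas and 617177 to 3545904 (median 2523007) beside others. The difference of mean log10 totals was 0.0123 (two-sided exact permutation test, p = 0.911, adjusted p = 0.935 over 5 measures). At least 10 counts were found for 9162 ± 1975 genes (SD, n = 7) beside tubular and 9084 ± 2105 genes (SD, n = 6) beside other carcinomas (same exact permutation test, adjusted p = 0.935). In each library the 10 most abundant genes held between them 52.3 ± 11.1% (SD, n = 7) beside tubular and 50.9 ± 4.93% (SD, n = 6) of the counts beside other carcinomas (exact permutation test, adjusted p = 0.935). ENSCAFG00000007590 was the most abundant gene in each of the 13 libraries, with 15.6% to 35.3% of the counts beside tubular and 19.98% to 27.0% beside other carcinomas. Its log2 fold change, tubular over other, was 0.15 (SE 0.446, adjusted p = 0.9997 in edgeR).

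Tubular dogs were older in these samples, at 11.4 ± 2.70 years (SD, n = 7) against 8.17 ± 3.06 years (SD, n = 6). This difference of 3.26 years did not pass the test (two-sided exact permutation test, p = 0.0851, adjusted p = 0.425 over 5 measures). Without dog 132, the 6-year-old tubular dog, it was 4.17 years with an unadjusted p of 0.0152 from the same exact permutation test. Leaving out the youngest tubular dog must enlarge the difference, so that this p adds no support. Without any other single dog the unadjusted p of that test was 0.0505 to 0.182. Time between surgery and analysis was 10.0 ± 5.86 months (SD, n = 7) for tubular and 13.8 ± 6.05 months (SD, n = 6) for other samples (exact permutation test, adjusted p = 0.728). The part of dog age in the gene values below was not tested beyond fits that hold age as a covariate.

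**Figure D1:**
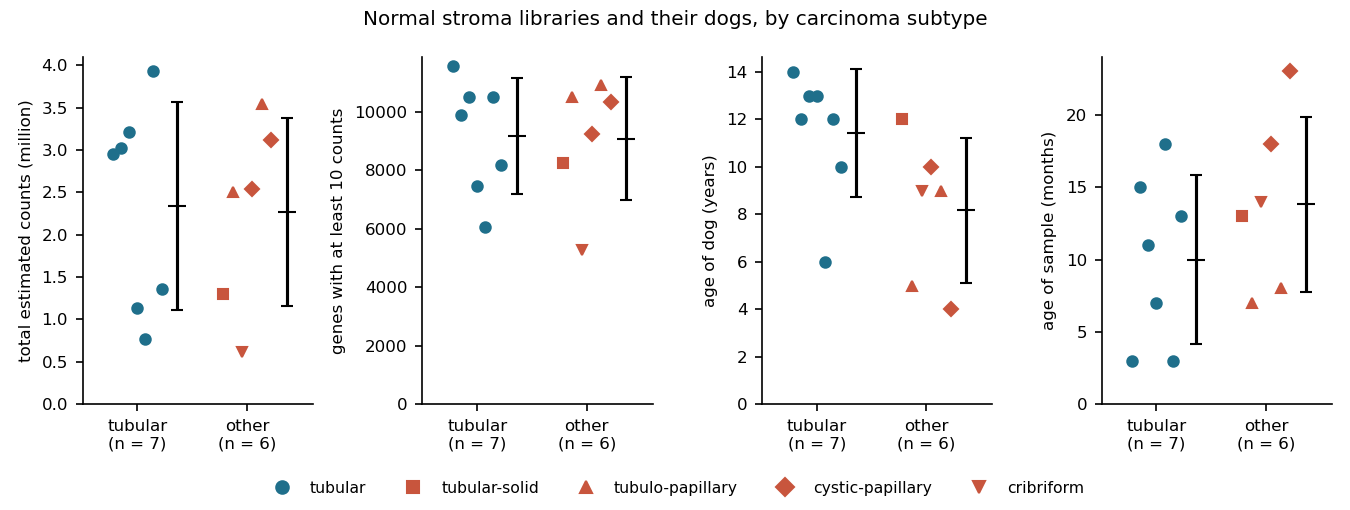
Each point is 1 normal stroma library or its dog, with total estimated counts, genes with at least 10 counts, age of the dog in years and age of the sample in months on the y axes, and the group on the x axis; marker shapes give the subtype and black bars the mean ± SD. The groups overlap in all 4 measures, and 6 of the 7 tubular dogs are 10 years or older while 4 of the 6 other dogs are under 10.

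In the PCA of log2 CPM (a gene's count scaled to a common library total, with TMM factors), single libraries and not the subtype carried the leading components. PC1 held 27.3% of the variance, and dog 131 (cribriform) alone took 83.4% of its squared scores. Dog 130 (tubular) took 88.1% of PC2, which held 15.2% of the variance, and dog 134 (cystic-papillary) 89.2% of PC3, which held 12.4%. Dogs 131 and 130 have low totals, 617177 and 1141471, whereas dog 134 has 2542342. Dog 132, with 769370, was at the far end of none of these components, at scores of 0.66 on PC1, 6.67 on PC2 and 12.6 on PC3. Its median Spearman correlation was 0.737 with the tubular and 0.744 with the other libraries. For dog 134 these medians were 0.713 and 0.744. The part of depth in these scores and correlations was not tested. Subtype explained 5.89% of PC1, 8.21% of PC2 and 13.3% of PC3 (two-sided exact permutation tests of the mean scores, adjusted p = 0.634, 0.628 and 0.388 over the 3 components). These shares moved with single libraries. For PC1 the share was 10.6% without dog 121, 9.17% without dog 130 and 3.87% without dog 131, and for PC2 it was 14.8% without dog 131. For PC3 it was 7.13% without dog 130, 7.28% without dog 131 and 6.63% without dog 134. It was higher, at 19.6%, without dog 109 and 15.1% without dog 123 (exact permutation tests, unadjusted p = 0.0253 and 0.0281). After a variance-stabilizing transformation the share for PC3 was 20.5% (same test, unadjusted p = 0.0734). With the 1000 most variable genes alone the share was 1.62% for PC1, 12.8% for PC2 and 19.1% for PC3. Over all genes and libraries, the distinction between tubular and other took up 7.47% of the variance of log2 CPM. Any division of 13 libraries into 7 and 6 takes up some variance, whatever the labels. These shares are therefore not by themselves a sign of a difference by subtype.

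**Figure D2:**
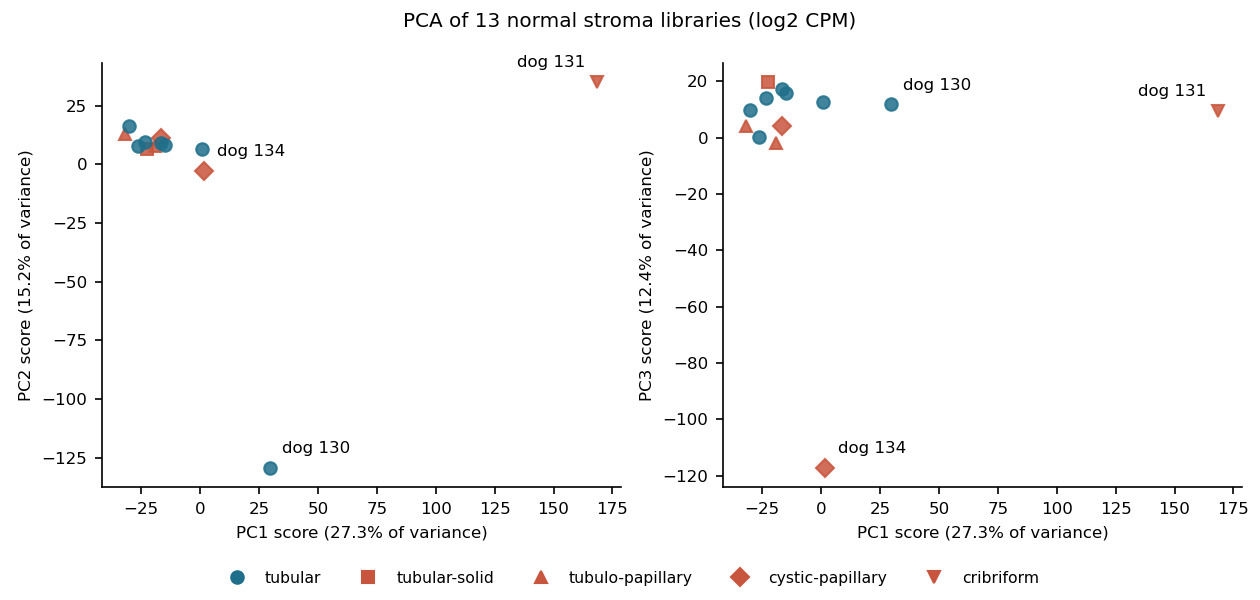
Scores of the 13 normal stroma libraries on PC1 against PC2 (left) and PC1 against PC3 (right), with colour for the group and marker shape for the subtype. Dogs 131, 130 and 134 each stand at the far end of 1 component, and the remaining 10 libraries of both groups lie together.

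Over all 13 libraries, those of the same group had no higher median correlation than those of different groups. The median Spearman correlation of log2 CPM, over the genes tested, was 0.752 for the 21 pairs within tubular, 0.758 for the 15 pairs within other and 0.772 for the 42 pairs between the groups. These are descriptions, since pairs share libraries. Without dogs 130, 131 and 134 the medians were 0.775, 0.819 and 0.818, so that the median within other was then level with that between the groups. Among the tubular libraries, 0 of 7 had a higher median correlation with the rest of their own group than with the other group; among the other libraries, 2 of 6 had. The most similar pair was dogs 138 and 139, of the tubulo-papillary and cystic-papillary subtypes, at 0.875, followed by the 2 tubulo-papillary dogs at 0.870. Next came a pair across the groups, dog 121 (tubulo-papillary) and dog 123 (tubular), at 0.866. Both cystic-papillary dogs, by contrast, correlated at 0.758 and ranked 39 among all pairs. Dog 109 (tubular-solid) was closest to a tubular library, that of dog 126, at 0.831. Its next closest were dogs 138 and 121 of its own group, at 0.806 and 0.805. The median correlation of dog 109 was level, at 0.796 with the tubular and 0.794 with the other libraries.

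**Figure D3:**
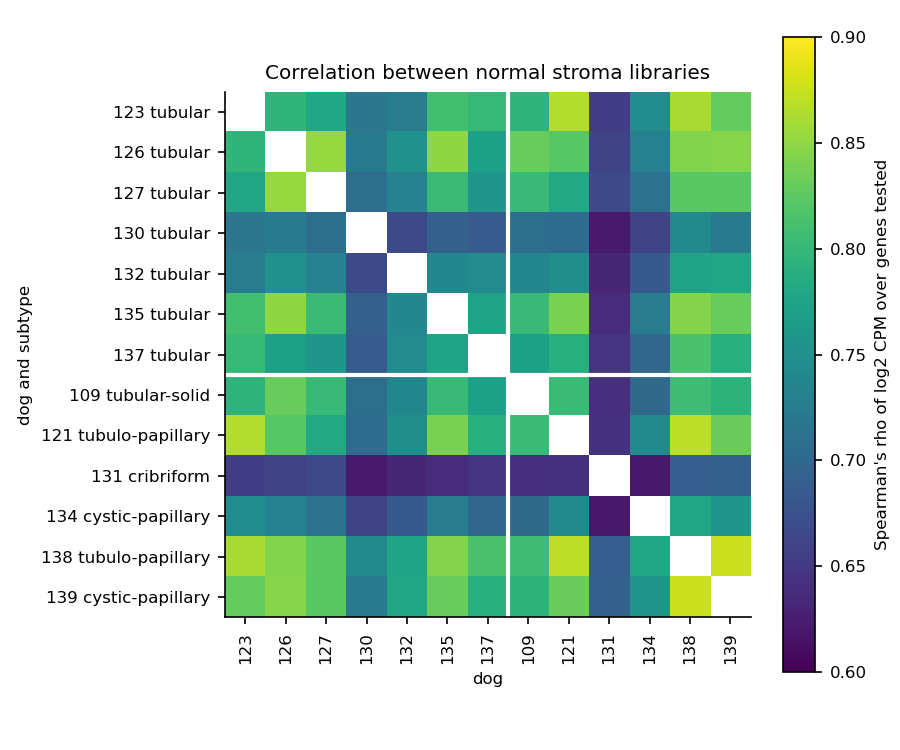
Spearman's rho of log2 CPM between each pair of normal stroma libraries, with the tubular dogs above and left of the white lines and the other dogs below and right. The darker rows are dogs 130, 131, 132 and 134, and the block between the groups is no darker than the blocks within them.

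No gene separated tubular from other normal stroma at an adjusted p under 0.05. Of 9954 genes tested, 0 were called (0%) by the quasi-likelihood test of edgeR (Benjamini-Hochberg), and 0 at the thresholds of the study (FDR under 0.01, fold change over 2). The smallest adjusted p was 0.9997. At an unadjusted p under 0.05 there were 296 genes (2.97%), 145 higher and 151 lower beside tubular carcinomas. DESeq2's Wald test called 1 gene, ENSCAFG00000020107, with 419 of the 9954 genes at an unadjusted p under 0.05. Limma on log2 CPM, added after seeing the data, called 0 genes, with 330 of the 9954 at an unadjusted p under 0.05. With dog age as a covariate edgeR called 0 genes as well, with 402 of the 9954 at an unadjusted p under 0.05. Without dogs 130, 131 and 134 more genes passed the filter, and edgeR called 0 of 10947, with 283 at an unadjusted p under 0.05.

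Fitted differences were small for most genes, and their precision depended on abundance. The median size of the log2 fold change was 0.28, and the median over all genes, with sign, was 0.02. A fold change over 2 was fitted for 587 genes (5.90%), of which 166 had an unadjusted p under 0.05, and one over 4 for 43 genes, of which 32 had. The median SD between dogs of a group was 1.26 on the log2 scale among the 3318 least abundant genes, 0.79 among the 3318 of middle abundance and 0.51 among the 3318 most abundant ones. The 95% interval of limma for the difference lay within a 2-fold change in either direction for 3064 genes (30.8%). These were 2339 of the 3318 most abundant genes but 18 of the 3318 least abundant ones. Within a 4-fold change it lay for 7865 genes (79.0%). For the remaining genes the interval reached beyond a 4-fold change, so that a difference of that size was not excluded with 7 and 6 dogs.

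**Figure D4:**
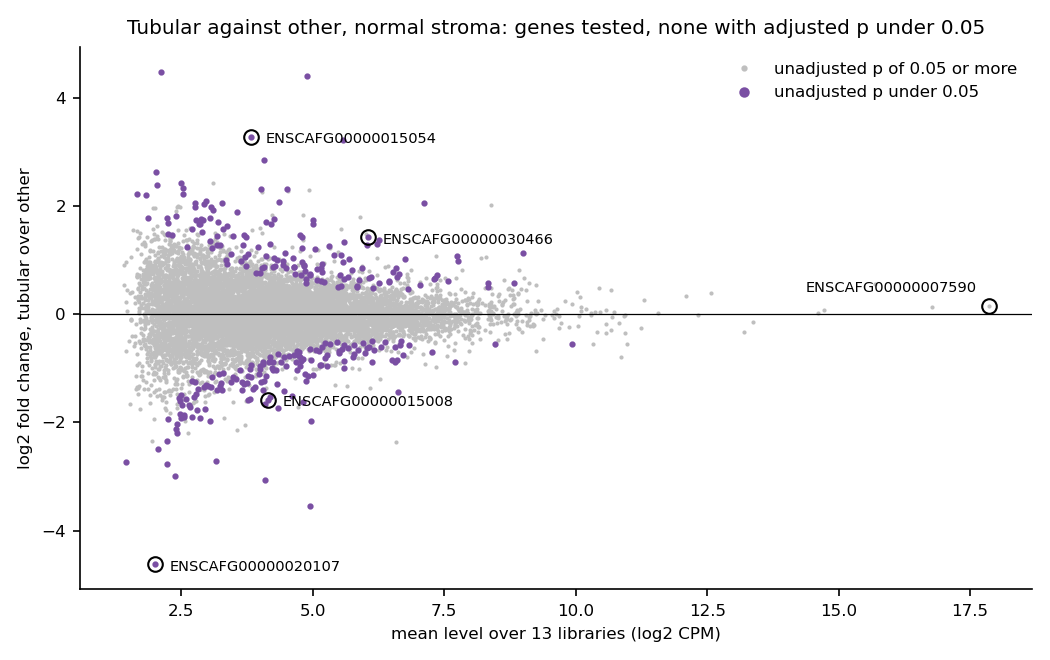
Log2 fold change, tubular over other, of each of the 9954 genes tested (y axis) against its mean level in log2 CPM over the 13 libraries (x axis), with the 296 genes at an unadjusted p under 0.05 in purple and the named genes circled. The cloud is centred near 0 and widens towards low levels, and no gene passed the adjusted threshold.

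In 11 of the 9954 genes (0.111%) every library of a group lay above every library of the other, 5 with tubular higher and 6 with tubular lower. The share of 0.111% is no higher than a random division would give. Of these 11 genes, 9 had an unadjusted p under 0.05. Full separation goes with a small p, so this count adds no support. The genes described next are the 2 with the smallest p in each direction, and none of them passed the adjusted threshold in edgeR.

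ENSCAFG00000020107 had the smallest p of all genes. Beside other carcinomas its level was 0 to 33.0 CPM (median 26.6), and beside tubular ones 0 to 2.60 CPM (median 0). In CPM it lay above every tubular library in 5 of the 6 other dogs. Of these, dog 121 had 82 counts, dog 138 had 121, dog 134 had 77 and dog 139 had 73. Dog 131 had only 7 counts, at 11.3 CPM in a library with a low total. The library of dog 109, with the tubular-solid carcinoma, held 0 counts, which allows a level of up to 2.30 CPM, and lay among the tubular libraries. Of the 7 tubular libraries, 4 held 0 counts, with limits of 0.763 to 3.90 CPM, and the highest held 12. These limits are 3 counts set against the raw library total, without the TMM factors of the levels, and cover counting error only. The log2 fold change was -4.63 (SE 0.937), with an unadjusted p of 0.000116 and an adjusted p of 0.9997 in edgeR. In DESeq2 it was -4.76 with an adjusted p of 0.00306. Under the alternative fits in edgeR and limma its adjusted p stayed above the threshold, down to 0.0978 against the 4 papillary dogs alone and 0.116 without dog 109. Both of these fits leave out dog 109, whose 0 counts lie against the difference. Its removal must enlarge the difference, so these values add no support. With dog age as a covariate the log2 fold change was -4.21 (unadjusted p = 0.00338, adjusted p = 0.999), and in limma on log2 CPM it was -3.42. With the libraries of dogs 128 and 136 included it was -2.94 (unadjusted p = 0.0365). Without dog 123, the tubular library with 12 counts, the gene did not pass the filter and was not tested.

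ENSCAFG00000015008 was lower beside tubular carcinomas in every library. It was at 3.75 to 14.5 CPM (median 12.0) in the 7 tubular and at 17.7 to 55.6 CPM (median 31.1) in the 6 other libraries, and the groups do not overlap. The lowest of the other libraries was again that of dog 109. The log2 fold change was -1.58 (SE 0.374, unadjusted p = 0.000542, adjusted p = 0.9997 in edgeR). It was -1.93 with dog age as a covariate, -1.09 with 4 surrogate variables and -1.20 without dogs 130, 131 and 134. DESeq2 gave it an adjusted p of 0.128.

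On the other side, ENSCAFG00000015054 was at 5.58 to 225 CPM (median 37.1) beside tubular carcinomas and at 1.56 to 20.7 CPM (median 2.01) beside others. Dogs 132, 123 and 137 had the highest levels, 225, 127 and 118 CPM. The tubular dogs 126, 127 and 135 lay below the highest of the other dogs, so the groups overlap. The log2 fold change was 3.28 (SE 0.921, unadjusted p = 0.00233, adjusted p = 0.9997 in edgeR). Its size depended on the fit and on single dogs: it was 3.84 with dog age as a covariate, 2.35 (unadjusted p = 0.0457) with 4 surrogate variables and 1.499 (unadjusted p = 0.213) in limma-voom with sample weights, a fit added after seeing the data. It was 4.02 without dog 138 and 2.75 without dog 132.

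ENSCAFG00000030466 was at 41.8 to 267 CPM (median 87.6) beside tubular and at 29.9 to 75.3 CPM (median 39.6) beside other carcinomas. Its highest levels were those of dogs 132 and 137, and the highest of the other dogs was dog 109. The log2 fold change was 1.42 (SE 0.406, unadjusted p = 0.00273, adjusted p = 0.9997 in edgeR). Over the alternatives it was 0.96, with 4 surrogate variables, to 1.67, against the 4 papillary dogs.

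CAS of the same 13 dogs was compared in the same way, to see whether normal stroma differs from it. The libraries are separate but come from the same animals. In CAS, 0 of 11488 genes (0%) had an adjusted p under 0.05 in edgeR, 375 (3.26%) had an unadjusted p under 0.05, and the groups did not overlap in 11 genes (0.0958%). That last share is no higher than a random division would give. DESeq2 called 1 gene in CAS, ENSCAFG00000003029, named here after its values were seen. Its log2 fold change in that test was -3.29 in CAS, and in edgeR it was -2.20 in normal stroma (unadjusted p = 0.0581). In the test of the interaction between stroma and subtype, with the dog as a block, 0 of 12206 genes (0%) had an adjusted p under 0.05 and 285 (2.33%) an unadjusted p under 0.05. A difference between the stromas in what goes with subtype was therefore not found for any gene, at a number of dogs that limits this test further.

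Directions were shared between normal stroma and CAS about as often for the leading genes as for all genes. Of the 289 genes with an unadjusted p under 0.05 in normal stroma that were also tested in CAS, 150 (51.9%) had the same direction in CAS, against 51.5% of all 9740 genes tested in both. An unadjusted p under 0.05 in both was found for 4 genes with the same and 6 with the opposite direction. Of the 11 genes whose groups do not overlap in normal stroma, 5 had the same direction in CAS.

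A single gene, ENSCAFG00000015008, had groups that do not overlap, in the same direction, in both stromas. In CAS it was at 13.9 to 24.1 CPM (median 22.0) in the 7 tubular and at 26.3 to 31.4 CPM (median 27.8) in the 6 other dogs. The log2 fold change in CAS was -0.47 (SE 0.188, unadjusted p = 0.0243, adjusted p = 0.996 in edgeR). It is 1 of the 11 genes whose groups do not overlap in CAS. Both stromas come from the same dogs, so CAS is no second set of animals. The log2 fold change in normal stroma minus that in CAS was -1.03 (SE 0.464, unadjusted p = 0.0394, adjusted p = 1 for the interaction in edgeR).

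In CAS the groups overlapped for the other leading genes. ENSCAFG00000020107 held 0 counts in 5 of 7 tubular and 5 of 6 other CAS libraries, with at most 10 counts, and did not pass the filter there. ENSCAFG00000015054 was at 0 to 11.7 CPM in tubular and 0 to 18.8 CPM in other CAS (log2 fold change -0.68, adjusted p = 0.996 in edgeR). ENSCAFG00000030466 had medians of 103 CPM in tubular and 135 CPM in other CAS (log2 fold change -0.01, adjusted p = 0.999). The interaction had an unadjusted p of 0.00136 for ENSCAFG00000015054, 0.00434 for ENSCAFG00000030466 and 0.00576 for ENSCAFG00000020107, with an adjusted p of 1 for each in edgeR.

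Whether normal stroma beside tubular carcinomas lay nearer to CAS was asked after seeing the data, and the groups overlapped. Each normal stroma library was placed on the line from the mean normal stroma (0%) to the mean CAS (100%) of the other 12 dogs. That mean normal stroma sets both the zero point and the line, which can push positions above 0%. The positions therefore serve to compare the groups and do not measure how far normal stroma has moved towards CAS. Tubular libraries lay at 22.1 ± 24.9% (SD, n = 7) and other libraries at 9.89 ± 25.9% (SD, n = 6; exact permutation test, two-sided p = 0.396, adjusted p = 0.782 over 2 measures). Dog 135 (tubular) lay nearest to CAS at 55.2% and dog 131 (cribriform) farthest from it at -34.4%. The 4 libraries below 0% were those of dogs 130, 131, 132 and 134, of which 3 have the lowest totals among the 13. The difference of 12.2 percentage points rested on single libraries. It was 3.30 without dog 131, 6.64 without dog 135, 18.9 without dog 130 and 4.06 without dogs 130, 131 and 134. The part of depth in this position was not tested. The Spearman correlation between the normal stroma and the CAS of a dog was 0.770 ± 0.0783 (SD, n = 7) for tubular and 0.758 ± 0.0918 (SD, n = 6) for other dogs (exact permutation test, adjusted p = 0.782).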

How the data were processed

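For these files the authors had run kallisto 0.44.0 against Ensembl transcripts of CanFam3.1, summarised per gene with tximport, and deposited estimated counts without normalisation, for 18582 genes and 30 libraries; 0 values have a fraction. Dogs are numbered, and subtypes assigned, as in the labels. The members and lists were chosen with earlier results of these data known.

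In R 4.3.3, estimated counts were filtered with filterByExpr of edgeR 4.0.16, scaled by TMM and tested with its quasi-likelihood test without covariates (Benjamini-Hochberg adjusted p under 0.05). The study states surrogate variables for CAS against normal stroma; here they are an alternative. SEs derive from the fold change and F. PCA and levels use log2 CPM with a prior count of 2, or CPM. Alternatives used DESeq2 1.42.0, limma 3.58.1 and sva 3.50.0 (4 surrogate variables by num.sv with 20 permutations). Exact tests ran over all 1716 divisions into 7 and 6, doubling the smaller tail, with a smallest p of 0.00117. The fits of subtype without covariates in edgeR, DESeq2, limma and limma-voom, and the edgeR interaction with the dog as a block, were tried on simulated data. The alternatives with covariates, other filters or other scaling were not, nor were the other fits of the interaction. Named genes are the 2 with the smallest p in each direction and the most abundant one. The planned gene lists were not run, because the IDs have no names. Depth, 617177 to 3932370 counts per library, limits precision for low genes.

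Normal stroma and CAS of a dog are paired by the animal. Their deviations from the group means correlated at a mean of 0.147 (0.0435 to 0.302, over 0.1 in 10 of 13 dogs), against -0.0114 between different dogs, and the interaction was fitted with the dog as a replicate block.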

Additional observations from a re-analysis of the deposited data

Results flagged for a closer look

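In 38 sets of values from 6 or 7 dogs, the gap between the end value and its neighbour was set against the whole range. It was wide in 4, where about 2 would be for independent, normally distributed values. These sets share dogs and include PC scores and genes chosen by p, so that number is no chance rate for them. On PC1, dog 131 scored 168.6 among the other normal stroma libraries, whose next highest score was 1.76. On PC2, dog 130 scored -129 among the tubular libraries, whose next lowest score was 6.67. On PC3, dog 134 scored -117 among the other libraries, whose next lowest was -1.86. Leaving out all 3 of these libraries gave 0 called genes in edgeR, as did each alone. For ENSCAFG00000030466, dog 109 (tubular-solid) had 75.3 CPM in normal stroma, where the next highest of the other dogs had 42.2 CPM. Why these libraries stand apart was not tested.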

How the results depend on the processing

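In normal stroma, edgeR and limma called 0 genes under every alternative run; DESeq2's Wald test called 1, in normal stroma and in CAS alike, and gave no adjusted p for 24 and 10 genes. Leaving out each dog gave 0 called genes (0 to 0) in both stromas. The interaction gave 0 genes with the dog as a replicate block, 0 with no replicate block and 0 in DESeq2 with the block. Of the 3630 genes with 10 counts or more in all 13 libraries, 3 had groups that do not overlap. The 4 named genes kept their direction in each fit that tested them; ENSCAFG00000007590 turned to -0.073 with 4 surrogate variables.

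Differences near 0 changed sign. Without dogs 130, 131 and 134, an alternative chosen after seeing the data, the difference in log10 total was -0.0437, in genes detected -551 and in correlation with CAS -0.0217. Without 1 dog at a time these were -0.0880 to 0.0820, -684 to 596 and -0.0174 to 0.0338, and the share of the 10 most abundant genes differed by -0.430 to 4.93 percentage points. The difference in dog age was 3.48 years (exact permutation test, p = 0.0357) over all 15 dogs and 2.43 to 4.17 years without 1 dog. Subtype explained 14.8% of PC3 with scaled genes (exact permutation test, unadjusted p = 0.0385) and 6.63% to 19.6% without 1 dog, with the lowest p, 0.0253, without dog 109. The causes were not tested.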
